A study of Rattus norvegicus with 72 samples.

Results

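The response of the ethanol-fed rat liver in the first hour after partial hepatectomy (PHx) was measured on 8 of the 72 arrays of the series. They came from 4 animals on the ethanol (EtOH) diet, each of which gave 1 control array and 1 array from the remnant taken 1 h after PHx. These 8 arrays are all those titled EtOH at 1 h, they were matched within animals by the animal labels, and none of them is marked as an outlier by the submitters. The series holds 36 rats in all, on the EtOH diet or on a high fat (HF) or carbohydrate (CHO) control diet, with remnants taken 1, 6 or 24 h after PHx. Every control sample was liver frozen at the time of PHx itself, so the control of an animal is its own liver before regrowth began. The EtOH rats were fed ethanol chronically and both control diets were pair-fed, per the labels, which do not state strain, age, sex, diet composition, length of feeding or the extent of the resection. No sham-operated animals are among the samples, so the response to loss of liver mass cannot be told apart from that to anaesthesia, surgery and the passing of the hour.

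Partial hepatectomy removes part of the liver, and the remaining cells, which are otherwise quiescent, re-enter the cell cycle and restore the lost mass. The first step, known as priming, is a burst of immediate early transcription, in which transcription factors such as those of the Jun, Fos, Egr and Myc families are switched on without new protein synthesis. Cytokines, growth factors, portal pressure and adrenal hormones all act on hepatocytes in this window, and DNA synthesis follows much later. Chronic ethanol feeding is known to slow regeneration in rodents.

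All values are log2 intensities from the authors' batch-corrected table, with a single probe set per gene, and a change is the remnant minus the control of the same animal. A gene was called at an adjusted p under 0.05 (limma, animal as block, Benjamini-Hochberg over 14506 genes), and errors are standard errors of that fit, with n = 4 pairs for the EtOH diet. Replicates 1 to 3 were scanned on 1 day and replicate 4 on another, with both arrays of an animal on the same day. Medians of the 8 EtOH arrays lay between 4.624 and 4.710, and the level 4.67, the median of these 8 medians, is used below to mark dim genes. The tables hold no detection calls, so the size of a change that starts or ends under that level is uncertain. In bulk liver, a shift in the number of cells of a type and a shift in the RNA per cell cannot be told apart. The 4 pairs are separate animals. The errors and p-values rest on a spread between animals that was pooled over 27 animals of all diets and times. They do not measure the spread of the 4 EtOH pairs alone, for which the pair values are given.

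In the ethanol-fed remnant 427 genes, 2.94% of those tested, were called at 1 h, of which 251 (1.73%) rose and 176 (1.21%) fell. The rises were larger: their median change was 0.82 against -0.51 for the falls, and 92 genes rose but 6 fell by at least 2-fold. A rise of at least 4-fold was found for 21 genes and a fall of that size for 0. With a fold change of at least 1.5 required as well, 197 genes (1.36%) rose and 60 (0.414%) fell. The median change over all genes was -0.02, and 1849 genes had an unadjusted p under 0.05.

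Most called genes moved the same way in every animal. Of the 427, 417 had the same sign in 4 of 4 pairs, 243 among those that rose and 174 among those that fell. Of all 14506 genes tested, 1326 were above 0 and 2301 below 0 in 4 of 4 pairs. The calls were made from these same pairs, so agreement among called genes is partly built in and is no separate support. For 200 of the genes that rose all 4 remnants lay above all 4 controls, and for 132 that fell all lay below, where 3.3% and 4.89% of all genes tested were separated in these directions. The sign opposed the mean in 2 called genes for replicate 1, in 3 for replicate 2, in 0 for replicate 3 and in 5 for replicate 4. Across genes, which are not independent replicates, the changes of any pair of animals correlated at between 0.32 and 0.53. The last gene inside the threshold was Sertad2 (change -0.38, adjusted p = 0.0497) and the first outside it S1pr1 (-0.48, adjusted p = 0.0508).

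The number of calls was lower when any 1 animal was left out, in fits that also have 1 pair fewer. Without replicate 1, 2, 3 or 4 the count was 278, 226, 224 and 286, and 152 of the 427 genes (122 that rose, 30 that fell) were called in all 4 of these fits. Genes named below without a remark are among those 152, and for others the replicate whose removal ended the call is given with the change that remained.

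**Figure D1:**
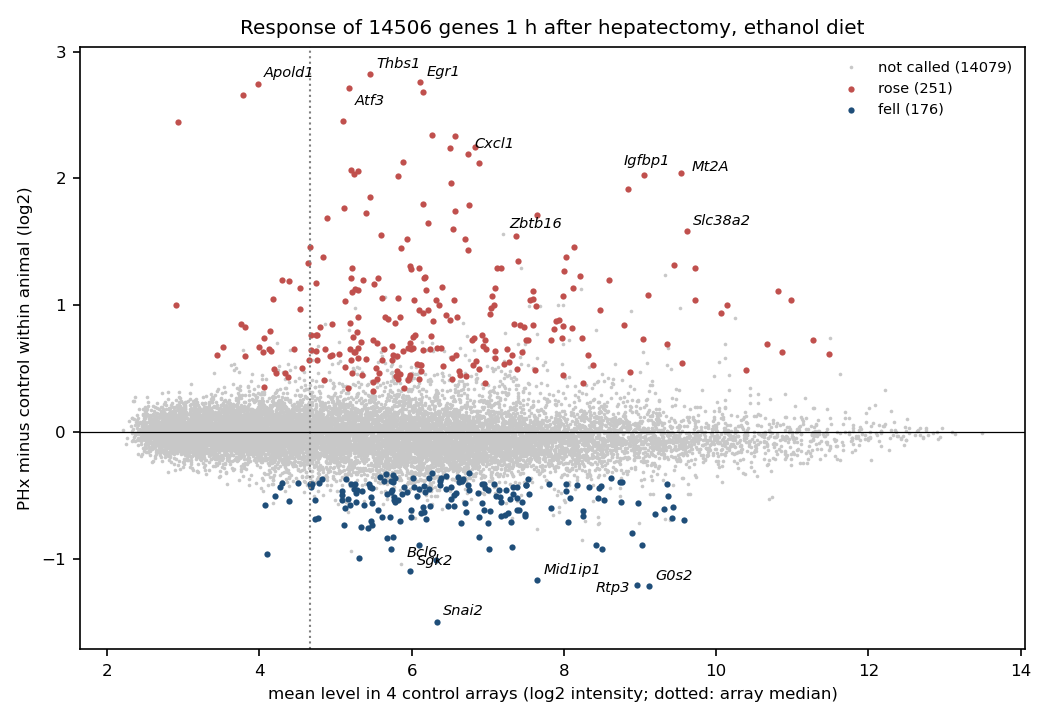
Mean level in the 4 control arrays (x axis, log2 intensity) against the mean change from control to the 1 h remnant (y axis, log2) for 14506 genes of ethanol-fed rats. Red points are the 251 genes that rose and blue points the 176 that fell at an adjusted p under 0.05. The rises reach 2.82 (Thbs1), the falls -1.49 (Snai2), and Zbtb16 and Bcl6 are large changes that were not called.

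The immediate early transcription factors were the group with the highest share of calls among the lists examined. Of 27 measured, 20 rose and 0 fell (74.1% called, beside 2.94% of all genes). The median change was 0.93, and 16 of the 20 stayed called without each animal in turn. The largest rises among the transcription factors belong to different families: Egr1, a zinc finger factor, Atf3, a stress-induced factor of the ATF/CREB family, Nr4a1, an orphan nuclear receptor, and Myc, which drives cell growth. Apold1, an early response gene of vascular endothelium, is a member of the list that is no transcription factor.

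Egr1 read 6.15, 5.91, 5.96 and 6.42 in the control livers of replicates 1 to 4 and 8.64, 9.19, 9.46 and 8.19 in their remnants. All 4 remnants stood more than a unit above every control, and the mean change was 2.76 ± 0.36 (6.77-fold, adjusted p = 1.71e-05). Atf3 went from 5.26, 5.47, 4.93 and 5.03 to 7.37, 7.88, 8.47 and 7.81, again without overlap (change 2.71 ± 0.24, adjusted p = 4.02e-08). Nr4a1 started below the array median in every control, at 3.79, 3.85, 4.24 and 3.24, and read 5.62, 6.00, 6.97 and 7.17 in the remnants. Its rise of 2.66 ± 0.29 (adjusted p = 1.55e-06) was widest in replicate 4 and smallest in replicate 1. Myc had controls of 6.07, 5.61, 6.13 and 5.47 and remnants of 7.77, 7.55, 8.22 and 7.82, which gives 2.02 ± 0.32 (adjusted p = 0.000215) and the evenest of these responses among animals. Apold1, also dim in the controls, rose by 2.75, 3.10, 2.21 and 2.93 in the 4 pairs (mean 2.75, adjusted p = 6.93e-11).

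**Figure D2:**
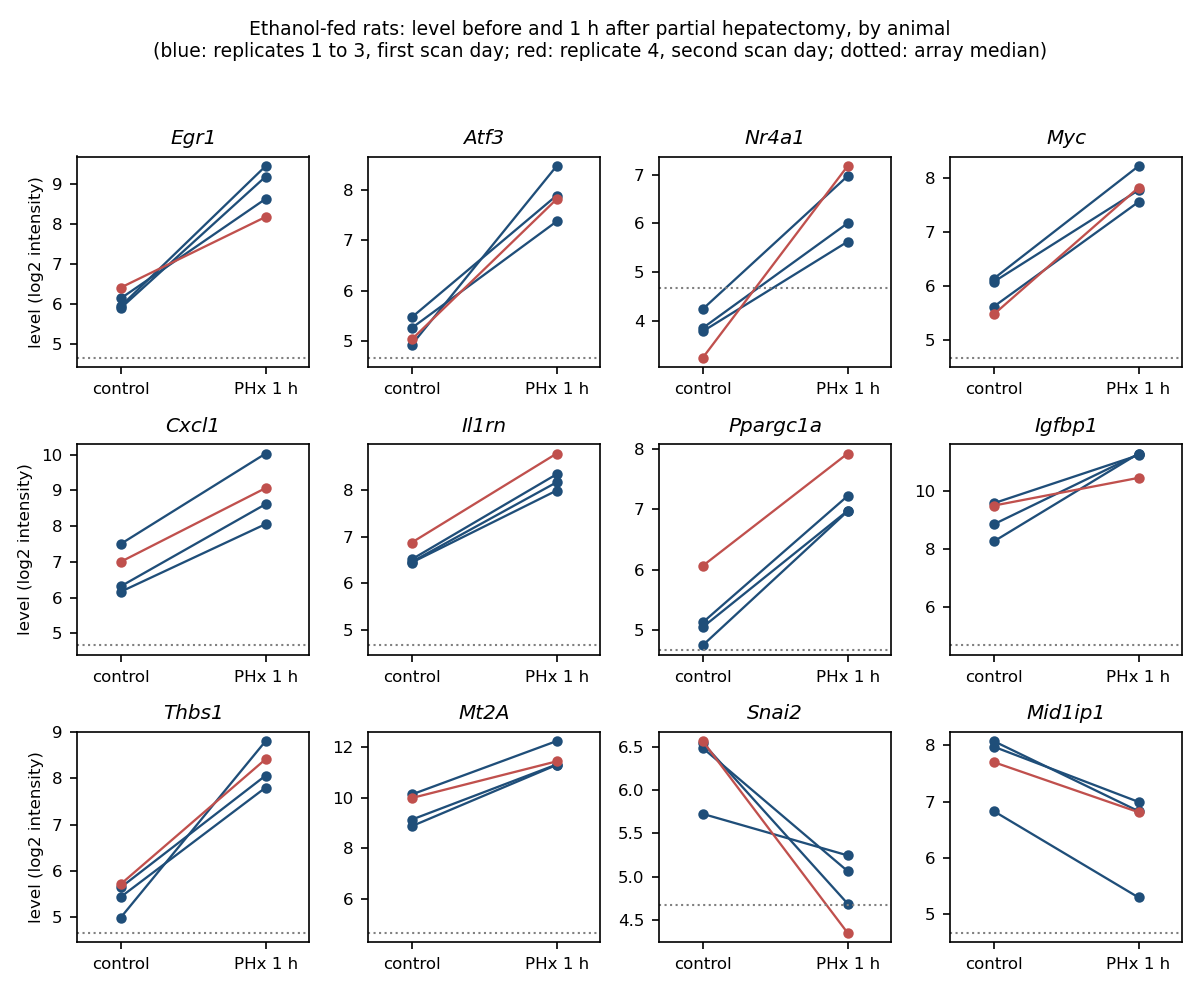
Level (log2 intensity, y axis, with a range of its own in each panel) of 12 genes in the control liver and the 1 h remnant, with a line for each of the 4 ethanol-fed animals. Blue lines are replicates 1 to 3 and red lines replicate 4, scanned on another day, and the dotted line is the array median. In these 12 genes every line runs the same way, upward in the first 10 panels and downward for Snai2 and Mid1ip1.

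The AP-1 subunits rose to different extents. Junb rose by 1.8 ± 0.17 and Jun by 1.35 ± 0.19 (adjusted p = 1.09e-07 and 5.04e-05), and Fosl2 by 0.93 ± 0.10 (adjusted p = 8.87e-07). Fos itself, the best known subunit, rose by 1.07, 0.43, 0.57 and 0.53 in the 4 animals (mean 0.65, adjusted p = 0.00895), from controls near the array median, and its call ended without replicate 1, which leaves 0.51. Jund changed by 0.66 (adjusted p = 0.0357), with overlapping groups, and its call ended without replicate 1, 3 or 4 (0.71, 0.54 and 0.51). Fosl1 was not called (-0.04, adjusted p = 0.919). The small Maf factors Maff and Mafk, which pair with CNC and AP-1 proteins, rose by 1.20 and 0.94 (adjusted p = 6.82e-05 and 1.39e-05).

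Other families were called as well. The Krüppel-like factors Klf6, Klf10 and Klf2 rose by 1.85, 1.12 and 0.89, while Klf4 was not called at 0.36 (adjusted p = 0.169). Csrnp1, Ier2 and Srf, the serum response factor that itself drives many immediate early genes, rose by 1.29, 1.21 and 0.89. Nr4a2 and Nr4a3, the relatives of Nr4a1, had means of 0.77 and 0.65 that were carried mostly by replicate 4, with pair changes of 0.27, 0.22, 0.60 and 1.99 for Nr4a2. Without replicate 4 they were 0.36 and 0.35, without replicate 3 0.82 and 0.58, and not called in either case. Of the Egr family, Egr2 and Egr3 were not called (0.26 and 0.19).

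Promoter letters are shown for the immediate early genes that rose because this is the group whose control by the CArG box, bound by serum response factor, and by the cAMP response element TGACGTCA, bound by CREB and ATF factors, is best known. Sequences are from RefSeq on rat build GRCr8, read 5′ to 3′ on the strand of the gene, with the matching letters in capitals and up to 20 bases around them in lower case. Of the 20 genes, 12 had a promoter entry, and 6 of these held a motif within 250 bases before the start: 3 a CArG box and 3 a cAMP response element.
Egr1, chr18:26736953-26737024, plus strand, 125 to 54 bases before the start, CArG boxes in capitals: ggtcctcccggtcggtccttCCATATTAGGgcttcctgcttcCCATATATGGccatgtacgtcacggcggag
Srf, chr9:21923975-21924044, plus strand, 101 to 32 bases before the start, CArG boxes in capitals: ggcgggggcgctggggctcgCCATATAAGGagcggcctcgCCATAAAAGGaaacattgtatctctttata
Klf6, chr17:69458650-69458699, minus strand, 221 to 172 bases before the start, CArG box in capitals: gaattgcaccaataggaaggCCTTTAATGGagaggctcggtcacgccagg
Ier2, chr19:40399287-40399334, plus strand, 86 to 39 bases before the start, cAMP response element in capitals: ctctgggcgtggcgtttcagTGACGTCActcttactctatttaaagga
Maff, chr7:112792716-112792763, plus strand, 71 to 24 bases before the start, cAMP response element in capitals: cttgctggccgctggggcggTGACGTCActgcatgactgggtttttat
Jund, chr16:18769965-18770012, minus strand, 241 to 194 bases before the start, cAMP response element in capitals: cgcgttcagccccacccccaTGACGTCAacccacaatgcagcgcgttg

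Both strands were searched in the 250 bases before each start, and the 2 motifs share no letters in these 6 promoters. Egr1 and Srf carry 2 CArG boxes each. Among all 27457 RefSeq promoters, 1.5% held a CArG box, 1.7% a cAMP response element and 3.17% either, and of the 11968 of genes tested on the arrays 3.41% held either. Among the genes called in the ethanol-fed remnant, either motif stood in 11.9% of 202 promoters of genes that rose and in 6.0% of 150 of genes that fell. These are counts of letters, with no test, and say nothing of binding.

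**Figure D3:**
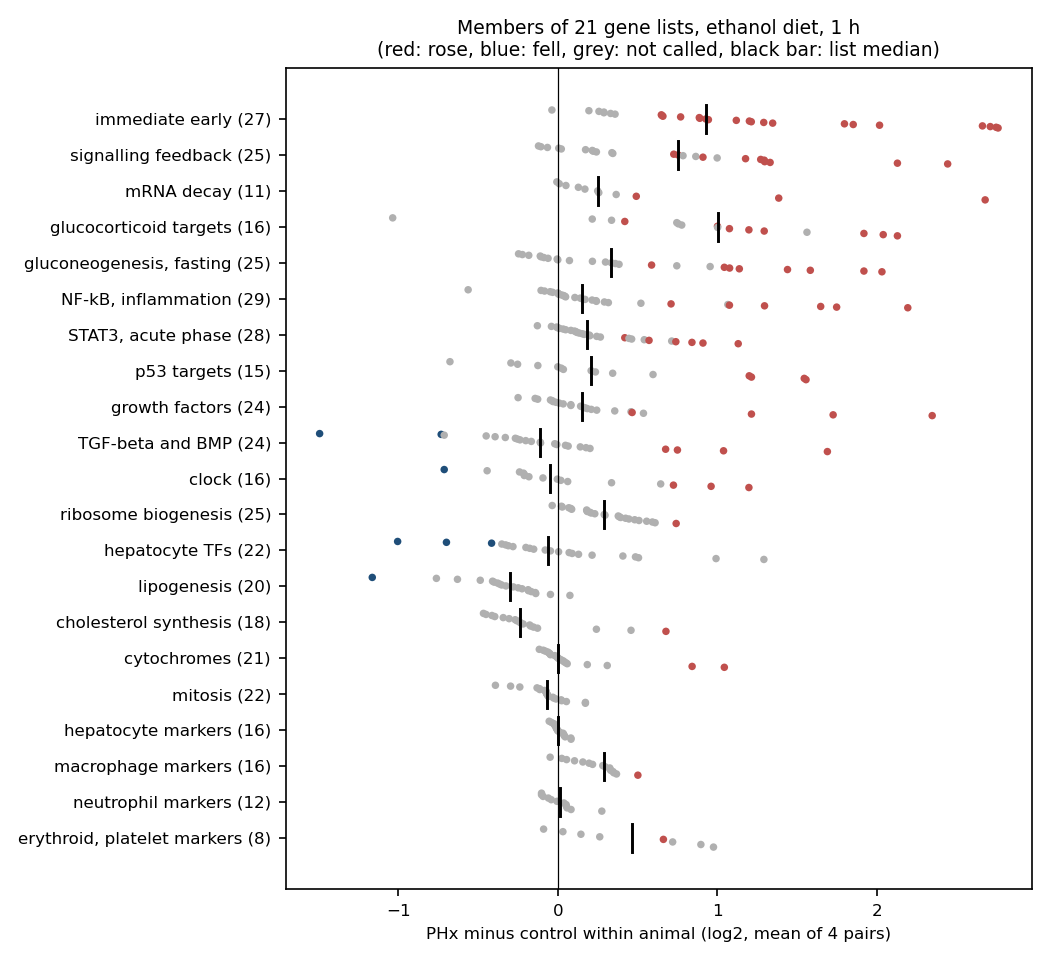
Change from control to the 1 h remnant (x axis, log2, mean of 4 pairs) of each measured member of 21 gene lists (y axis, number of members in brackets) in ethanol-fed rats. Red points rose, blue points fell, grey points were not called, and the black bar is the median of the list, which is 0.93 for the immediate early genes and -0.07 for mitosis genes.

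Of 25 measured regulators of MAP kinase, G protein and cytokine signalling, most of them feedback inhibitors, 11 rose, 0 fell and 14 were not called. The share called was 44%, beside 2.94% of all genes, and the median change was 0.75. Rgs1, which shuts off G protein signalling, read 2.94, 2.67, 3.21 and 2.92 in the controls, all under the array median, and 5.87, 5.09, 4.89 and 5.65 in the remnants. The rise of 2.44 ± 0.18 (adjusted p = 2.43e-09) was present in all 4 animals without overlap. Gadd45b, a stress sensor upstream of p38 and JNK, went from 5.92, 5.74, 5.85 and 6.03 to 7.84, 7.43, 8.37 and 8.42 (change 2.13 ± 0.18, adjusted p = 1.84e-08), and these groups lay well apart. Gadd45a rose by 1.27 and Rgs2 by 1.18.

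Of the dual-specificity phosphatases, which inactivate MAP kinases, Dusp8 rose by 1.33 ± 0.17 (adjusted p = 2.06e-05) and Dusp1 by 1.29 ± 0.27 (adjusted p = 0.00533), the latter not called without replicate 2 (1.08). Dusp5 had pair changes of 0.35, -0.12, 1.45 and 1.34 (adjusted p = 0.0152) and was not called without replicate 3 or 4 (0.52 and 0.56). Dusp2, Dusp4, Dusp6 and Dusp10 were not called, at -0.07 to 0.22. Trib1, a pseudokinase, and Sik1, a kinase induced by cAMP that restrains CREB coactivators, rose by 1.3 and 1.29 (adjusted p = 0.000155 and 0.000113). Spry4, an inhibitor of receptor tyrosine kinase signalling, rose by 0.73, and Socs3, the inhibitor of STAT3 signalling, by 0.91 (adjusted p = 0.00238 and 0.00261), while Spry1, Spry2, Socs1 and Socs2 were not called.

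Cish and Rgs16, on the same list, varied widely between animals and were not called. Cish, a target of growth hormone through STAT5, had pair differences of -1.58, 1.54, 0.34 and 2.84, and Rgs16, another brake on G protein signalling, of 2.91, 1.65, 0.63 and -1.19. Each gene was lower in the remnant of 1 animal and higher in the others, and the means of 0.78 and 1.00 had adjusted p of 0.713 and 0.431.

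Regulators of mRNA decay rose for 3 of 11 measured and fell for 0 (27.3% called, beside 2.94% of all genes). Noct (nocturnin), of the deadenylase family, went from 6.34, 6.83, 5.37 and 6.05 to 8.37, 9.05, 9.13 and 8.74 (change 2.68 ± 0.52, adjusted p = 0.00278). Zfp36 (tristetraprolin), which binds AU-rich elements of cytokine and immediate early transcripts, rose by 1.09, 1.17, 1.93 and 1.35 in the 4 pairs (mean 1.38, adjusted p = 0.00026). Btg1 rose by 0.49, not called without replicate 1 or 2 (0.40 and 0.47).

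Among targets of NF-kB, the factor through which tumour necrosis factor and interleukin 1 act, 6 of 29 rose and 0 fell. The share called was 20.7%, beside 2.94% of all genes, and the median change was 0.15. Cxcl1, a chemokine for neutrophils, read 6.32, 6.17, 7.50 and 7.0 in the controls and 8.61, 8.06, 10.03 and 9.06 in the remnants. Replicate 3 was highest before and after, and the rise of 2.19 ± 0.26 (adjusted p = 4.66e-06) was of similar size in each animal. Il1rn, the secreted antagonist of the interleukin 1 receptor, rose from 6.44, 6.51, 6.46 and 6.87 to 7.99, 8.34, 8.17 and 8.78 (change 1.75 ± 0.22, adjusted p = 1.24e-05), and Il1a, one of the agonists, by 1.3 ± 0.16 (adjusted p = 1.39e-05). Nfkbia, an inhibitor of the pathway, and the nuclear protein Nfkbiz rose by 1.08 and 1.65 (adjusted p = 0.00338 and 0.00011). Vcam1, an adhesion molecule, had a change of 0.71 (adjusted p = 0.0207) that lost its call whichever animal was left out (0.69, 0.73, 0.74 and 0.68).

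Other cytokines and chemokines of the list were not called. Il6 had a mean of 0.02, Tnf of -0.08 and Il1b of 0.04 (adjusted p = 0.963, 0.897 and 0.942), and Ccl2, Ccl3, Ccl4, Ccl7 and Ccl20 lay between 0.01 and 0.24. Cxcl10, an interferon-induced chemokine, had pair differences of 0.66, -0.21, 2.77 and 1.04, with replicate 3 far above the rest, and was not called (1.07, adjusted p = 0.134). Irf1 had pair differences of -0.81, -0.97, 0.27 and -0.75 (mean -0.56, adjusted p = 0.0657), lower in 3 of 4 remnants, and was called without replicate 3 (-0.84). Of 21 interferon-responsive genes 0 were called (0%, beside 2.94% of all genes). With array weights 1 of them rose and 1 fell, and with the 1 h cohort alone 2 rose.

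Of 28 genes of interleukin 6, STAT3 and the acute phase, 6 rose and 0 fell (21.4% called, beside 2.94% of all genes). Of the 6, 3 stayed called without each animal, while 3 were called without replicate 3. Socs3, described above, was among them. Timp1, an inhibitor of metalloproteinases, went from 5.31, 4.93, 5.00 and 5.78 to 6.21, 6.45, 6.33 and 6.54 (change 1.13 ± 0.22, adjusted p = 0.00287), and Cebpb, a leucine zipper factor of hepatocyte growth, rose by 0.84 ± 0.16 (adjusted p = 0.00162). The receptors Osmr and Il6r had changes of 0.57 and 0.74, not called without replicate 3 (0.44 and 0.72), and for Il6r also without replicate 1 or 2 (0.63 and 0.62). Cebpd rose by 0.42 and lost its call whichever animal was left out (0.36 to 0.46). The secreted acute phase proteins Fgb, A2m, Hp and Crp were not called, at 0.08, 0.20, 0.10 and 0.11.

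Glucocorticoid targets had the highest median change of any list, 1.00. Of 16 measured, 8 rose and 0 fell (50% called, beside 2.94% of all genes). The list overlaps with others, since Gadd45b, Dusp1, Nfkbia and Cebpd were described above and Lpin1 is described with the fasting genes. Mt2A, a metallothionein that binds zinc, read 8.88, 9.14, 10.13 and 9.99 in the controls and 11.30, 11.32, 12.24 and 11.44 in the remnants. Every remnant lay above every control, and the change was 2.04 ± 0.42 (adjusted p = 0.0046). Mt1, another metallothionein and not on this list, rose by 1.24, 0.98, 0.94 and 1.00 (adjusted p = 0.0201) and lost its call whichever animal was left out (0.97 to 1.07). Klf9 rose by 1.00 ± 0.18 and Per1 by 1.20 ± 0.21 (adjusted p = 0.000982 and 0.000859), with no overlap between the groups for either.

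Some other glucocorticoid targets split the animals. Zbtb16 read 6.51, 6.01, 7.13 and 9.17 in the controls and 8.92, 8.76, 9.01 and 8.37 in the remnants: the control of replicate 4 was above all the remnants. Its mean of 1.56 ± 0.59 was not called (adjusted p = 0.201) but was called without replicate 4 (2.35). Fkbp5, a chaperone of the receptor, showed the same arrangement, with controls of 6.66, 6.16, 6.44 and 7.64 and remnants of 7.53, 7.39, 7.43 and 7.57 (adjusted p = 0.481). Bcl6, a transcriptional repressor, had pair differences of 1.59, -1.84, -1.16 and -2.73 (adjusted p = 0.374) and was called, as a fall, without replicate 1 (-1.91). Sgk1, a kinase, had 1.23, -0.28, 2.07 and 0.99 (adjusted p = 0.0828) and was called without replicate 2 (1.43).

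Of 25 genes of fasting and gluconeogenesis 8 rose and 0 fell (32% called, beside 2.94% of all genes). The median change was 0.34, and 3 of the 8 stayed called without each animal. The count was 4 without replicate 2, 4 without replicate 3 and 5 without replicate 4. Ppargc1a (PGC-1α), a coactivator induced by cAMP in fasting, went from 5.12, 4.74, 5.04 and 6.06 to 7.22, 6.97, 6.98 and 7.93. Replicate 4 was highest before and after, and the 4 changes, 2.10, 2.23, 1.93 and 1.87, were close to each other (mean 2.03 ± 0.17, adjusted p = 1.84e-08). Slc38a2, a transporter of neutral amino acids, rose from 9.80, 9.46, 9.47 and 9.73 to 11.04, 11.15, 11.44 and 11.17 (change 1.58 ± 0.21, adjusted p = 1.96e-05). Pfkfb3, which makes the allosteric activator of glycolysis, rose by 1.14 ± 0.14 (adjusted p = 9.68e-06).

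Each of the remaining risers of this list lost its call in at least 1 of the fits that left out an animal. Lpin1, a phosphatidate phosphatase that also acts with PGC-1α, rose by 2.01, 2.73, 2.37 and 0.57 (mean 1.92, adjusted p = 0.00584), not called without replicate 2 or 3 (1.65 and 1.77). Replicate 4 had the highest control and the smallest rise. Got1, the cytosolic aspartate aminotransferase, had 1.04, not called without replicate 2 or 3 (0.98 and 0.91). Foxo3, a forkhead factor that insulin signalling inhibits, had 1.08 and Sds, serine dehydratase, 1.44, neither of which was called without replicate 2, 3 or 4 (Foxo3 0.98, 1.03 and 1.08, Sds 1.37, 1.11 and 1.46). Crem, a modulator of the cAMP response, had 0.59, not called without the same animals (0.61, 0.64 and 0.38).

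The enzymes that carry out gluconeogenesis were not called. Pck1, phosphoenolpyruvate carboxykinase, had pair differences of 0.37, 0.57, 0.26 and 0.14 (mean 0.34, adjusted p = 0.373). G6pc1, glucose-6-phosphatase, had pair changes of 0.45, -0.28, -0.93 and -0.13 (mean -0.22, adjusted p = 0.845), and Pc, pyruvate carboxylase, had a mean of -0.11. Pdk4, which blocks glucose oxidation, had 0.58, -0.09, 1.77 and 1.56, was not called (0.95, adjusted p = 0.0573), and was called without replicate 2 (1.3).

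Igfbp1, a binding protein of insulin-like growth factors that insulin represses in the liver, rose from 8.26, 9.59, 8.86 and 9.50 to 11.31, 11.25, 11.29 and 10.47. The remnants of replicates 1 to 3 reached about the same level from different starting points, and that of replicate 4 rose least. The mean of 2.03 ± 0.50 (adjusted p = 0.0217) was not called without replicate 1, 2 or 3 (1.69, 2.15 and 1.89). It was the 1 gene called among 16 of the growth hormone and insulin-like growth factor axis (6.25%, beside 2.94% of all genes).

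Matrix and growth factor genes were among the largest rises. Thbs1, thrombospondin 1, an extracellular protein that activates latent TGF-beta, had the largest change of all genes called with the same sign in 4 pairs. It read 5.65, 5.44, 5.00 and 5.72 in the controls and 8.06, 7.80, 8.81 and 8.42 in the remnants. The change of 2.82 ± 0.32 (7.06-fold, adjusted p = 3.57e-06) was widest in replicate 3 and alike in the other 3 animals. Ccn1 and Ccn2, secreted matricellular proteins and known targets of YAP and of serum response factor cofactors, rose by 2.35 and 1.73 (adjusted p = 4.84e-07 and 1.09e-07). For Ccn1 the pairs gave 1.93, 1.92, 3.67 and 1.87, with replicate 3 standing apart. Adamts1, a matrix metalloprotease, rose from 6.70, 6.07, 6.61 and 6.71 to 8.49, 8.28, 8.32 and 8.85 (adjusted p = 5.41e-09).

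Of 24 growth factors and their receptors and activators, 4 rose and 0 fell (16.7% called, beside 2.94% of all genes). The 4 were Ccn1, Ccn2, Gdf15, a stress-induced hormone (1.21, adjusted p = 0.00011), and Plaur, the urokinase receptor (0.47, adjusted p = 0.0084, not called without replicate 3, 0.42). Hgf, the main mitogen of hepatocytes, had 0.70, 0.48, 0.37 and 0.28 (mean 0.46, adjusted p = 0.197), and its receptor Met a mean of 0.08. Hbegf, Areg, Tgfa and Egf, ligands of the EGF receptor, were not called, at 0.54, 0.14, 0.08 and -0.13.

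The TGF-beta and BMP list moved in both directions, with 4 of 24 genes up and 2 down (25% called, beside 2.94% of all genes). Without replicate 2 the count of rises was 2. Tgfb3 read 5.10, 5.10, 4.74 and 4.59 in the controls and 6.6, 6.27, 6.62 and 6.80 in the remnants, without overlap (change 1.69 ± 0.23, adjusted p = 4.13e-05). Tgfb2 had 0.68, from dim controls, not called without replicate 1, 2 or 3 (0.53, 0.71 and 0.62), and Tgfb1 had 0.05 (adjusted p = 0.918). Tgif1, a corepressor of SMADs, rose by 1.04 ± 0.20 (adjusted p = 0.00199), and Id1, a target of BMPs, by 0.75, the latter not called without replicate 2 (0.65). Bmp10, a BMP that signals through ALK1 on endothelium and was not on the list, went from 5.29, 5.19, 4.89 and 5.02 to 7.54, 7.26, 7.54 and 7.84 (change 2.45 ± 0.21, adjusted p = 2e-08), with groups more than a unit apart. Smad6, an inhibitor of BMP signalling, had -0.73, not called without replicate 1 or 2 (-0.65 and -0.71), and Snai2 is described with the falls.

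Genes that p53 and stress signals induce included 4 risers of 15 (26.7% called, beside 2.94% of all genes). Cdkn1a (p21), an inhibitor of cyclin-dependent kinases, read 7.40, 6.91, 7.15 and 8.0 in the controls and 8.76, 8.75, 9.17 and 8.96 in the remnants (change 1.54 ± 0.27, adjusted p = 0.000765), all remnants above all controls. Plk3, a stress kinase, rose by 1.56, Gdf15 as given above, and Tp53inp1 by 1.20, the last not called without replicate 3 (1.06). Mdm2 and Bax, often used as markers of p53 activity, had -0.13 and 0.03 (adjusted p = 0.81 and 0.933).

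Several large rises belonged to no list. Rhob, a small GTPase, went from 6.87, 7.03, 5.85 and 6.25 to 8.63, 8.51, 9.42 and 8.41 (change 2.24 ± 0.27, adjusted p = 6.47e-06), with the lowest control and the highest remnant in replicate 3. Coq10b, a binding protein of coenzyme Q, rose by 1.82, 2.42, 2.41 and 2.69 in the 4 pairs (adjusted p = 1.6e-05), and Enc1, a kelch protein bound to actin, by 2.25, 2.00, 2.29 and 1.94 (adjusted p = 4.51e-05). Zfp354a (Kid1), a zinc finger repressor, rose from 4.96, 4.91, 5.14 and 5.80 to 7.04, 7.49, 7.05 and 7.48 (adjusted p = 0.00109). Upp2, a liver uridine phosphorylase, rose by 3.02, 2.50, 2.47 and 1.00 (adjusted p = 4.43e-05), but its groups overlapped, since replicate 4 had a control of 8.62 and the other controls lay at or under 6.74. Hes1, a repressor downstream of Notch, rose by 1.60, 1.16, 2.43 and 0.91 (mean 1.52 ± 0.22, adjusted p = 6.82e-05).

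The falls were smaller, and the genes that fell most came from diverse functions. Snai2 (Slug), a repressor of epithelial genes, had the largest fall. It read 5.72, 6.49, 6.54 and 6.57 in the controls and 5.24, 5.06, 4.69 and 4.35 in the remnants, which ended near or under the array median in replicates 3 and 4. Replicate 1 had the lowest control and the smallest fall, the groups did not overlap, and the change was -1.49 ± 0.23 (adjusted p = 0.000135). Sgk2, a kinase related to Sgk1, went from 6.21, 7.04, 5.37 and 5.31 to 4.86, 5.23, 4.66 and 4.81 (change -1.09 ± 0.20, adjusted p = 0.00122). Jade2, a PHD finger protein of histone acetyltransferase complexes, went from 5.22, 5.57, 5.24 and 5.23 to 4.61, 4.25, 4.35 and 4.10 (change -0.99 ± 0.12, adjusted p = 6.47e-06), also without overlap.

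Of 20 lipogenesis genes 1 fell and 0 rose (5% called, beside 2.94% of all genes), and 5 fell in the fit of the 8 arrays alone. That gene was Mid1ip1, which promotes the assembly of acetyl-CoA carboxylase. It read 8.08, 7.98, 6.83 and 7.70 in the controls and 6.83, 7.0, 5.30 and 6.81 in the remnants, lower in every animal although the groups overlapped, because replicate 3 was low before PHx (-1.16 ± 0.23, adjusted p = 0.00291). The median change of the lipogenesis list was -0.30, and 19 of the 20 genes had a mean below 0. Fasn, fatty acid synthase, had -0.49, Acly -0.35 and Scd -0.33, none called (adjusted p = 0.404, 0.373 and 0.815). G0s2, the inhibitor of adipose triglyceride lipase, had pair differences of -1.28, -1.03, -1.23 and -1.31 (adjusted p = 0.049), alike in the 4 animals, but lost its call whichever was left out (-1.27 to -1.18).

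Of 22 transcription factors of the hepatocyte, 3 fell and 0 rose (13.6% called, beside 2.94% of all genes). No fall stayed called without each animal in turn. The count of falls was 2, 1, 0 and 1 without replicates 1 to 4. Foxa2, a pioneer factor of liver genes, went from 6.36, 6.04, 6.71 and 6.16 to 5.45, 5.25, 5.07 and 5.49, with no overlap and the largest fall in replicate 3 (change -1.01 ± 0.19, adjusted p = 0.00211), and was not called without that animal (-0.79). Tbx3 had -0.70 and Nr2f2 -0.42 (adjusted p = 0.0281 and 0.0449), not called without replicate 2, 3 or 4 (Tbx3 -0.51, -0.71 and -0.74, Nr2f2 -0.37, -0.40 and -0.46), nor Nr2f2 without replicate 1 (-0.44). Hnf4a and Cebpa were not called (-0.28 and -0.20). Nr0b2 (SHP), a repressor that the bile acid receptor induces, had pair changes of 1.79, 1.83, 1.15 and 0.40 (mean 1.29, adjusted p = 0.0612) and was called without replicate 4 (1.59), and Onecut1, a liver-enriched homeodomain factor, had -0.89, 1.17, 1.88 and 1.8 (adjusted p = 0.282) and was called without replicate 1 (1.62).

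Further falls that stayed called without each animal were those of Lpar6, a receptor of lysophosphatidic acid (-0.92, adjusted p = 0.000129), Zfp467, a zinc finger factor (-0.92, adjusted p = 0.000518), Kank1, an adaptor of the cell cortex (-0.91, adjusted p = 0.000539), Ift70b, of intraflagellar transport (-0.96, adjusted p = 0.0023), Pgpep1, a peptidase (-0.89), Med4, a Mediator subunit (-0.83), Lrig3, a leucine-rich repeat membrane protein (-0.89), and N5 (-0.76). Lpar6 went from 8.37, 8.60, 8.61 and 8.41 to 7.55, 7.41, 7.81 and 7.53, and its 4 falls were close in size. Rtp3, a receptor transporter protein, had -1.21 (adjusted p = 0.0046, without replicate 3 -1.10, not called). Rnf43, which removes Wnt receptors, and Efna1, an ephrin, had -0.83 and -0.89, both widest in replicate 2 and not called without it (-0.66 and -0.56). Grb7, an adaptor of receptor kinases, had -0.83, not called without replicate 4 (-0.62).

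Clock genes were called for 4 of 16 (25%, beside 2.94% of all genes). Per1, given above, and Bhlhe40, a repressor of CLOCK, rose (0.96 ± 0.16, adjusted p = 0.000518). Nfil3, a leucine zipper repressor, rose by 0.66, 0.74, 0.60 and 0.90 (adjusted p = 0.0161), alike in the 4 animals, but lost its call whichever was left out (0.66 to 0.77). Cry2 was called as a fall (-0.72, -1.11, -1.15 and 0.13, adjusted p = 0.0342) with the opposite sign in replicate 4, and was not called without replicate 1, 2 or 3 (-0.71, -0.58 and -0.57). Bmal1, Clock and Per2 were not called (-0.18, -0.09 and -0.21).

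Stress lists differed in their share of calls, which was 11.1% for endoplasmic reticulum stress, 25% for oxidative stress and 0% for heat shock and hypoxia, beside 2.94% of all genes. Ppp1r15a (GADD34), which restores translation by directing a phosphatase to eIF2alpha, rose from 5.51, 5.35, 5.20 and 5.10 to 6.88, 7.34, 7.92 and 7.26 (change 2.06 ± 0.16, adjusted p = 5.41e-09), while its usual companions in the integrated stress response, Ddit3, Atf4 and Asns, were not called (0.10, 0.08 and 0.21). It was 1 of 2 risers among 18 genes of the endoplasmic reticulum stress response, the other being Herpud1, with changes of 1.29, 1.70, 1.44 and -0.13 (adjusted p = 0.00662) and no call without replicate 1, 2 or 3 (1.01, 0.87 and 0.96). Of 16 oxidative stress genes 2 rose, Mt2A and Mt1, and 2 fell, Nfe2l2 (NRF2) at -0.59 and Osgin1 at -0.92, neither of them called without replicate 1, 2 or 3 (Nfe2l2 -0.61, -0.45 and -0.61, Osgin1 -0.73, -0.95 and -0.90). Hmox1 and Nqo1 were not called (0.41 and -0.21). Of 12 heat shock genes and 18 hypoxia genes, 0 and 0 were called, with medians of -0.13 and -0.03.

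Among lists of growth and division the share called was 5.56% for the G1 phase and 0% for mitosis. It was 4% for ribosome biogenesis and 18.2% for polyamine genes, beside 2.94% of all genes. Of 18 genes of the G1 phase, Cdkn1a was the 1 riser, and Ccnd1, cyclin D1, had pair differences of -0.04, -0.21, 0.07 and -0.12 (adjusted p = 0.938). Of 22 genes of mitosis 0 were called, the median was -0.07 and 17 lay under the array median in the controls. Tpx2, a spindle protein of that list, was called as a fall without replicate 4 (-0.52). Of 25 genes of ribosome biogenesis 24 had a mean above 0 and the median was 0.29, but 1 was called, Gnl3 (nucleostemin, 0.74, adjusted p = 0.0123), and it was not called without replicate 2, 3 or 4 (0.69, 0.66 and 0.74). In the fit of the 8 arrays alone 6 genes of this list were called. Nop56 and Nolc1, nucleolar proteins, had pair differences of 0.30, 0.56, 0.64 and 0.86 and of 0.46, 0.59, 0.61 and 0.57, all above 0, with adjusted p of 0.106 and 0.0739. Of 11 polyamine genes, Sat1 (0.73) and Azin1 (0.61) rose, neither called without replicate 3 (0.65 and 0.50), and Odc1 had 0.26.

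Metabolic lists held between 0 and 3 calls each, from 0% for ethanol oxidation, bile acids and PPAR-alpha targets to 5.56% for cholesterol, 9.52% for cytochromes and 3 of 21 genes for the urea cycle and amino acids, beside 2.94% of all genes. Of 9 genes that oxidise ethanol and acetaldehyde 0 were called, and Cyp2e1, the ethanol-inducible cytochrome, had 0.08, -0.04, -0.28 and 0.05 (adjusted p = 0.928). Among 21 cytochromes and their partners, Por, the reductase that supplies them with electrons, rose by 0.84 ± 0.18 (adjusted p = 0.00511), and Cyp26a1, which breaks down retinoic acid, had 1.04, not called without replicate 2 or 3 (0.96 and 0.74). Of 14 bile acid genes and 23 targets of PPAR-alpha, 0 and 0 were called, except that Nr0b2 was without replicate 4 and Pdk4 without replicate 2, as given above. Cyp7a1, which starts the conversion of cholesterol to bile acids, had 2.91, 1.37, -0.22 and 0.47 (adjusted p = 0.215), from near 3 in replicate 1 to below 0 in replicate 3. Of 18 genes of cholesterol synthesis and transport, Stard4 rose (0.68, not called without replicate 4, 0.60) and the median was -0.24. Of 21 genes of the urea cycle and amino acids 3 rose, Sds and Got1 as above and Tdo2 (0.70, not called without replicate 3, 0.61), and the count was 1 without replicate 2 and 0 without replicate 3.

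Markers of cell types were examined beside these results, in which 2.94% of all genes were called. Of 16 hepatocyte markers 0 were called and the changes lay between -0.06 and 0.08. Of 16 macrophage markers 15 had a mean above 0 (median 0.29, mean level of the list 7.39 to 8.01 in the controls and 7.62 to 8.19 in the remnants), and 1 was called, Marco (0.50, adjusted p = 0.0288), which was not called without replicate 2, 3 or 4 (0.45, 0.49 and 0.45). With array weights 5 of the 16 were called as rises. All 16 lay above the array median in the controls, and Clec4f, which marks resident Kupffer cells, had pair differences of 0.21, 0.23, 0.35 and 0.50 (adjusted p = 0.0954). Of 12 neutrophil markers 0 were called, 11 lay under the array median, and the mean level of the list was 3.82 to 3.96 in the controls and 3.85 to 3.99 in the remnants. Of 14 lymphocyte markers, 11 endothelial, 14 stellate cell and 7 cholangiocyte markers 0 were called in each. In the controls 10 of the lymphocyte, 0 of the endothelial, 3 of the stellate cell and 3 of the cholangiocyte markers lay under the array median. Of 9 periportal and 10 pericentral genes, Sds and Tbx3, described above, were the calls.

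Blood markers were higher in the remnants of 3 of the 4 animals. Of 8 erythroid and platelet genes the median change was 0.46, and the mean level of the list ran from 5.65 to 6.21 in the controls and from 6.19 to 6.59 in the remnants. Hbb, a haemoglobin chain, had pair differences of -0.01, 2.10, 0.69 and 0.81 (adjusted p = 0.236), near 0 in replicate 1 and highest in replicate 2. Pf4, of platelets, was the 1 gene called of these 8 (12.5%, beside 2.94% of all genes). Its change was 0.66 (adjusted p = 0.0473), and it was not called without replicate 1, 2 or 3 (0.77, 0.41 and 0.65). The part of blood or of macrophages in the rises of Cxcl1, Il1rn, Il1a, Rgs1, Nfkbiz and Thbs1, genes that such cells also express, was not tested.

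The same hour was measured in 3 HF and 3 CHO animals with both arrays kept, which asks whether the ethanol-fed remnant answers differently. None of the 14506 genes differed between the EtOH response and the mean of both control diets at an adjusted p under 0.05, that is 0 genes (0%), and the counts against HF and against CHO alone were 0 and 0 (limma interaction contrasts, 54 arrays). At an unadjusted p under 0.05 there were 522 genes (3.6%), 476 and 525, and the smallest adjusted p was 0.674. The 95% interval of a difference had a median half-width of 0.31 over all genes and 0.38 over the genes called in EtOH. These intervals are not adjusted for the number of genes, and differences as large as -1.72 (G6pc1) did not pass the adjusted threshold. Without HF replicate 4, 2 genes were called against HF, Klhl23 (-1.56) and Relt (-0.98), and without CHO replicate 1, 1 gene against CHO, Angptl4 (-1.86). The diets share no arrays, but the source names swap HF and CHO relative to the titles used here, and the mean of both diets does not depend on which is right.

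Each diet by itself gave counts of a like order. In HF 217 genes rose (1.5%) and 90 fell (0.62%), and in CHO 184 rose (1.27%) and 85 fell (0.586%), with 3 pairs each in place of 4. Of the 427 genes called in EtOH, 419 had the same direction in HF (98.1%) and 421 in CHO (98.6%), where 62.9% and 65% of all genes tested had. The SD over genes of an animal's changes holds its response together with noise of the arrays, which were not separated. It was 0.302 ± 0.0181 (SD, n = 4) in EtOH and 0.316 ± 0.0113 (SD, n = 6) in the control diets. The difference was -0.0131 (exact two-sided permutation test, p = 0.2, where the smallest possible p is 0.0048). It cannot tell whether the response itself differs in size.

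**Figure D4:**
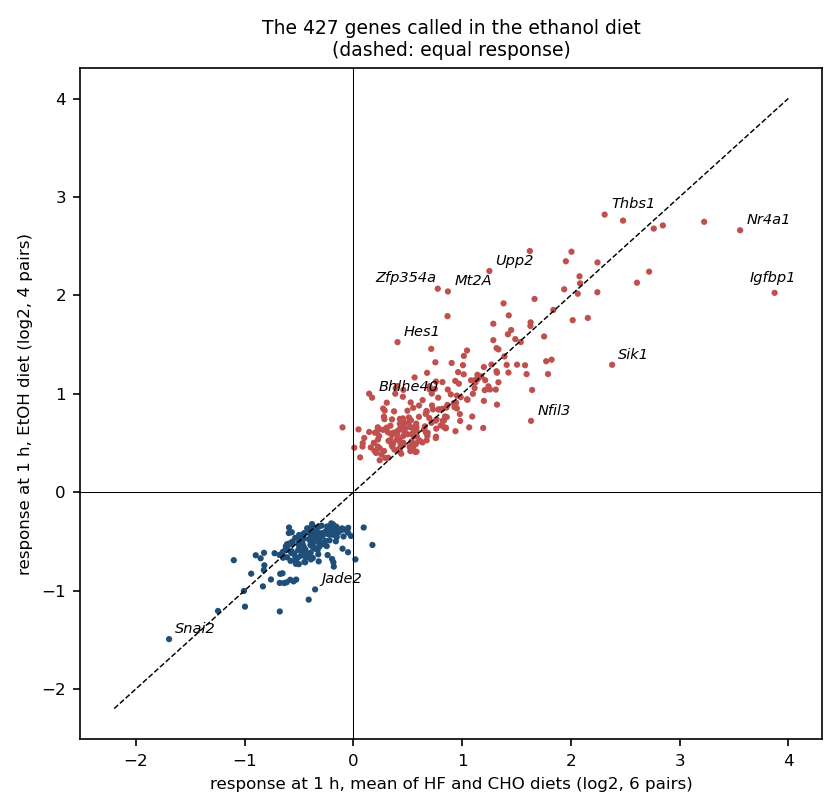
Response at 1 h of the 427 genes called in the EtOH diet (y axis, log2, mean of 4 pairs) against the mean response of the HF and CHO diets (x axis, log2, 6 pairs). Red points rose and blue points fell in EtOH, and the dashed line marks equal responses. Most points lie along the line, with Igfbp1, Sik1 and Nfil3 below it and Hes1, Mt2A and Zfp354a above it, none of them called as different.

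Genes with small unadjusted p for a difference between diets, picked after their values were seen, are given as values. G6pc1 had EtOH changes of 0.45, -0.28, -0.93 and -0.13, against 1.16, 2.48 and 1.82 in HF and 0.94, -0.03 and 2.63 in CHO (difference -1.72, 95% interval -2.53 to -0.92, unadjusted p = 0.000167, adjusted p = 0.674). The highest EtOH animal lay below 5 of the 6 control-diet animals. Sik1 had 1.24, 0.59, 1.28 and 2.07 in EtOH, 1.93, 2.62 and 1.78 in HF and 3.21, 2.22 and 2.53 in CHO (difference -1.09, interval -1.60 to -0.57, adjusted p = 0.674). Nfil3 stayed between 0.60 and 0.90 in EtOH and reached 1.55, 2.06 and 0.90 in HF and 1.97, 1.23 and 2.10 in CHO (difference -0.91, interval -1.37 to -0.45, adjusted p = 0.919). Igfbp1, above 0 in all 10 animals, had 3.04, 1.67, 2.43 and 0.96 in EtOH, 4.16, 3.80 and 5.63 in HF and 2.26, 2.71 and 4.69 in CHO (difference -1.85, interval -3.18 to -0.52, adjusted p = 0.999).

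Further genes had differences of either sign. Hes1 had 1.60, 1.16, 2.43 and 0.91 in EtOH, 0.53, 1.23 and -0.11 in HF and 0.19, 0.80 and -0.20 in CHO, where 1 HF animal lay above 2 EtOH animals (difference 1.12, interval 0.54 to 1.70, adjusted p = 0.956). Bhlhe40 had means of 0.96, -0.01 and 0.35 in EtOH, HF and CHO, and Nr1d1 (REV-ERB alpha, a repressor of the clock) 0.02, -1.10 and -1.31 (adjusted p = 0.987 and 0.999). Zfp354a had 2.07, 1.20 and 0.36, and Bmp10 2.45, 1.63 and 1.62 (adjusted p = 0.999 and 0.999). Elovl6 and Pnpla3, lipogenic genes that insulin and carbohydrate induce, had -0.71, -0.81, -0.78 and -0.22 and -1.17, -0.87, -0.79 and -0.22 in the EtOH animals. Their means were 1.03 and 0.84 in HF and 0.64 and 0.74 in CHO (adjusted p = 0.999 and 0.999). Elovl6 had 2.33, 0.79 and -0.035 in HF and 0.40, 0.89 and 0.63 in CHO. Pnpla3 had 2.71, 0.40 and -0.60 in HF and 0.49, 0.65 and 1.08 in CHO. The HF means thus rested largely on replicate 1, and HF replicate 4 lay within the EtOH range for Pnpla3. None of these differences passed the test, and Fbxo15, Prss53 and Jade2, the other 3 of the 5 smallest p beside G6pc1 and Sik1, had differences of -0.65, -0.71 and -0.64. Prss53 fell in EtOH (-0.54, adjusted p = 0.0142) and was not called without replicate 1 or 4 (-0.49 and -0.47).

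**Figure D5:**
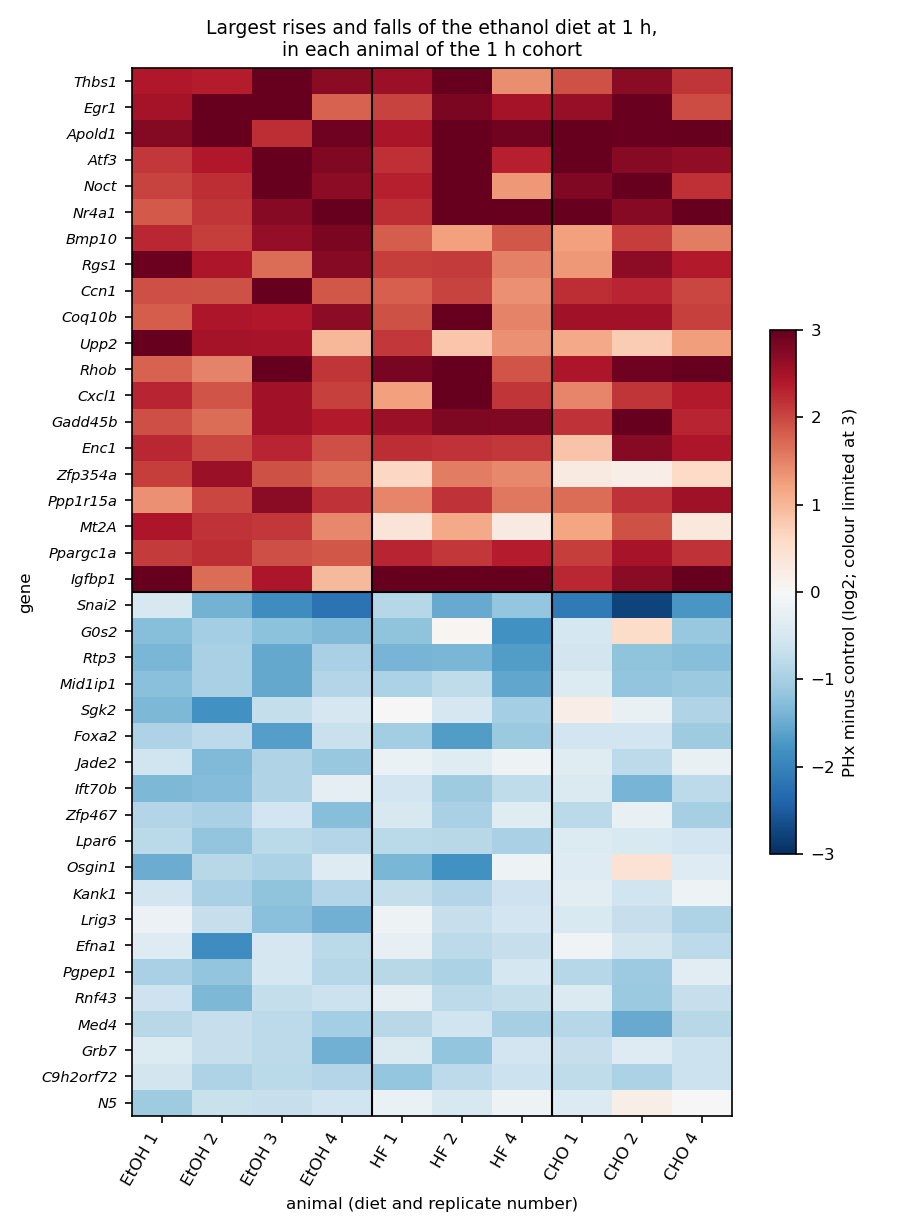
Change from control to the 1 h remnant (colour, log2, limited at 3) of the 20 largest rises and the 20 largest falls of the EtOH response (rows), in each of 4 EtOH, 3 HF and 3 CHO animals (columns). The 20 rises are above 0 in all 10 animals, whereas G0s2, Sgk2, Osgin1 and N5 have control-diet animals at or above 0.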

How the data were processed

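Total RNA of freeze-clamped rat liver was hybridised to Affymetrix Rat Gene 1.0 ST arrays, per the labels. The deposited values are on the log2 scale and were made by the authors with RMA in Affymetrix Expression Console, per the submitters' processing notes, and, in the batch-corrected table used here, with a mixed-effects ANOVA (diet and time fixed, batch and animal random), per the file headers. That table was checked to equal the deposited value table plus a constant per probe set and scan day (within 0.00015), so changes within an animal are the same in both. Both arrays of an animal shared a scan day.

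Of 29214 probe sets 15310 carry 1 gene symbol, 323 several and 13581 are not listed, and 14506 genes were each represented by their brightest probe set. Changes were fitted in limma 3.58.1 (R 4.3.3) on the 54 arrays of 27 animals with neither array marked as outlier, in all diets and times, with the animal as block and 18 residual degrees of freedom, and Benjamini-Hochberg adjustment over all genes. The spread is thus shared with other groups. The fit was tested on simulated data. Precision is limited by 4 pairs.

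Named genes are the 20 largest rises and falls with the same sign in all 4 pairs, the 4 smallest p of each of 39 gene lists, all called list members and 25 fixed genes, with 21 more chosen after their values were seen. Other members of the lists are given by value only. The group, lists and tests were chosen with earlier results of these data known. The pairing comes from the animals' labels (after group means were removed, arrays of an animal correlated at 0.32, 0.37, 0.40 and 0.20 across genes). Alternatives were other tables, normalization, weights, arrays, filters, blocks and single animals left out. Promoters are from RefSeq (GRCr8). Figures were drawn with matplotlib 3.10.9.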

Additional observations from a re-analysis of the deposited data

Results flagged for a closer look

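Within the 4 ethanol-fed animals, 9 of 226 values examined had 1 animal far from the other 3 by Dixon's criterion, where chance gives about 1 in 20. Among called genes, Ccn1 rose by 3.67 in replicate 3 against 1.87 to 1.93 in the others, and Rnf43 had -1.35 in replicate 2 against -0.72 to -0.61. Among genes not called, the change in replicate 1 was 0.004 for Ifit3 (0.62 to 0.72 in the others) and 0.085 for Trib3 (0.56 to 0.64). Replicate 2 had -0.039 for Apob, where the others had 0.06 to 0.08. Insig1 had 0.88 in replicate 3 against 0.31 to 0.32. Replicate 4, scanned on the second day, stood apart for Elovl6 (-0.22 against -0.81 to -0.71), Spp1 (-0.59 against 0.10 to 0.13) and Cdkn2c (-0.07 against -0.30 to -0.27).

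Probe sets without a single gene symbol, which entered no comparison above, also responded. They were fitted by themselves with the same model, and p-values were adjusted over these probe sets alone. Of 13904, 95 (0.683%) were called at an adjusted p under 0.05, 59 up and 36 down, with changes from -1.77 to 3.32.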

How the results depend on the processing

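The count of 427 called genes moved most with the choice of arrays. It was 729 with array weights (all 427 among them), 274 with all 72 arrays, of which 271 are shared, 17 within the second scan day alone, where EtOH has 1 pair and the spread comes from the other diets, and 224 to 286 without 1 animal. These fits change the number of arrays or their weights, and the cause was not tested further. The direction of 422 of the 427 genes was the same in all 23 alternatives that keep every gene. Many of these fits average the same 4 pair differences, so they cannot change a direction and are no separate support. The second scan day alone rests on replicate 4, whose sign opposed the mean in 5 called genes. The value table gave 427, the authors' table without outliers 422, renewed quantile normalization 459, the 1 h cohort alone 548, the 8 arrays alone 505 (3 residual degrees of freedom), genes above the array median 449, the mean of probe sets 427, the animal as random block 409, trended and robust eBayes 378 and the first scan day alone 403. With no replicate block, so without the pairing, 359 genes were called, 332 of them shared. Among named genes, Cry2 (0.127) and Herpud1 (-0.125) reversed within the second scan day alone. Of 118 called genes followed through the alternatives, 23 lost their call with all 72 arrays and 16 within the first scan day alone. Among those that stayed called without each animal in turn, the losses were Per1, Pfkfb3 and Por with all 72 arrays. Within the first scan day alone they were Lrig3, Srf and Tgif1. Counts of lists grew most for lipogenesis (5 falls with the 8 arrays alone, against 1), ribosome biogenesis (6 rises with the 8 arrays alone, against 1) and macrophage markers (5 rises with array weights, against 1). Other counts shrank, such as fasting and gluconeogenesis (4 rises without replicate 2 or 3, against 8). Immediate early genes had 16 rises within the first scan day alone, against 20, and urea cycle and amino acid genes 0 without replicate 3, against 3. Within the second scan day alone, with 1 EtOH pair, the immediate early and fasting lists lost most of their rises.

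Differences from the control diets were 0 throughout for the mean of both diets. They ran from 0 to 2 against HF and from 0 to 1 against CHO when 1 animal was left out, and were 0 in the other alternatives. The exact p of the permutation test on the spread over genes of each animal's changes ranged from 0.0833 to 0.464. Precision is limited by 4 EtOH and 3 animals of each control diet, and low signals, under the array median, have changes of uncertain size.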
